A study of Danio rerio with 2 samples.

Results

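The genes described here are *KIRREL3*, *PCDH9*, *NTNG2*, *ca10a*, *THSD7B*, *TRHDE*, *chst1*, *CAMK1* and *IQSEC2*, 9 symbols for adhesion, cell surface, enzyme and signalling proteins. They were picked on their levels in the FSH-producing gonadotropes of these same data, so every level below is a description without a test. The features lists held 14 listings for the 9 symbols among 32057 features. *IQSEC2*, *TRHDE*, *KIRREL3*, *NTNG2* and *CAMK1* each had 2 listings, which are told apart here by the last digits of their Ensembl identifiers (IQSEC2-709 is ENSDARG00000077709). Which zebrafish paralog each listing stands for was not settled, and reads could be split between near-identical copies.

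Droplet single-cell RNA sequencing was run on dissociated pituitaries of male zebrafish aged 6 months, with 30 fish per genotype. One library came from *cck1-/-;cck2-/-* fish, labelled CCK1/2-KO and called mutant here, in which CRISPR/Cas9 had disrupted both genes for the gut and brain peptide cholecystokinin, and 1 library came from wild-type (WT) fish. With 1 library of pooled fish per genotype, differences between genotypes have no replicate check, and genotype and library cannot be told apart. The study asked how cholecystokinin acts on the gonadotropes.

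Gonadotropes are the pituitary cells that make the gonadotropins, luteinizing hormone (LH) and the follicle-stimulating one (FSH), each a pair of the shared alpha subunit *cga* with a specific beta subunit, *lhb* or *fshb*. In zebrafish and other teleosts the 2 hormones come mostly from separate cells, in contrast to mammals. Several of the proteins described here are known from the nervous system of mammals, where some of them help to form contacts between cells. KIRREL3 is an immunoglobulin-superfamily adhesion molecule, PCDH9 a delta protocadherin, NTNG2 a netrin-G anchored in the membrane by a lipid, and CA10 a secreted protein that binds neurexins.

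A gonadotrope was a cell with at least 1% of its unique molecular identifiers (UMIs, the counted mRNA molecules) from *lhb* and *fshb* together. By the share of *fshb* in that sum, cells over 90% were called FSH cells, cells under 10% LH cells, and those between mixed cells. The mutant library held 0 FSH, 0 mixed and 19 LH cells, against 7 FSH, 22 mixed and 72 LH cells in the WT library. The other classes were hormone cells of other kinds (at least 5% of UMIs from growth hormone, prolactin, *pomca* and other pituitary hormone genes) with 210 mutant and 369 WT cells, and non-endocrine cells with 3065 mutant and 4007 WT cells. All levels in FSH cells thus come from 7 WT cells with 70539 UMIs in all, and 0 of 19 mutant gonadotropes allows a share of FSH cells of up to 17.6%.

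The matrices held 3755 mutant and 5236 WT barcodes with 15910570 and 22358017 UMIs, and 11 barcodes occurred in both. After filtering, 3458 mutant and 4864 WT cells remained, of which 64.2% and 63.8% had under 2000 UMIs. The cholecystokinin ligand gene *ccka* gave 14 UMIs in 12 mutant barcodes and 144 UMIs in 14 WT barcodes, and as the files do not say which targeted gene this is, it does not check the genotype labels. Levels are CPM (UMIs of a gene scaled to 1e+06 UMIs of all genes, both summed over a class). The intervals given with them are 95% intervals that cover counting error only, not the spread between fish.

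The FSH cells carried 4 of the 5 gonadotrope markers looked at. They held 1900 *fshb*, 24 *lhb* and 2125 *cga* UMIs and 66 UMIs of the gonadotrope transcription factor gene *nr5a1b*. Of these markers *fshb* and *lhb* are part of the definition of the class, so *fshb* had to be present, while *cga* and *nr5a1b* are not. The GnRH receptor gene *gnrhr2* had 0 UMIs in FSH cells, where 3 counts amount to 42.5 CPM, and stood at 44.7 CPM in WT LH cells, so a difference was not detectable at this depth. Since several members are best known from neurons, neuron markers were read beside them: 7 of 12 had a UMI in FSH cells, with a summed level of 1786 CPM, against 9 of 12 and 1003 CPM in WT LH cells and 1311 CPM in WT cells of the other hormones. The neuronal genes *stmn2a*, *stmn2b*, *gad1b*, *slc17a6a* and *slc17a6b* had no UMI in the FSH cells. Endothelial, macrophage and T and NK cell markers had none there either. Pituicyte markers summed to 454 CPM in FSH cells, from 3 of 7 (*cyp26b1*, *scn4ab* and *cyp19a1b*), against 35.3 CPM in WT LH cells, and oligodendrocyte markers to 298 CPM in FSH cells, from *mbpb* and *plp1b*, against 98.8 CPM in WT LH cells. Red blood cell markers summed to 4551 CPM in FSH cells and 5046 CPM in WT LH cells. The part of these in the members' levels was not tested.

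Most of the members were higher in FSH cells than in LH cells of the WT pituitary by a wide margin. Of the 14 listings, 11 reached 20 UMIs over both classes, and 8 of the 11 were at least 4-fold higher in FSH cells, where 4.21% of 4986 features were. The median log2 ratio was 3.68 over the 11 listings and 0.27 over all those features. As the members were picked for this contrast, nothing is read from the difference. The 3 listings below the count minimum were KIRREL3-903, NTNG2-100 and CAMK1-116, with at most 1 UMI each in FSH cells, so that *KIRREL3*, *NTNG2* and *CAMK1* are described below by their other listing.

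**Figure D1:**
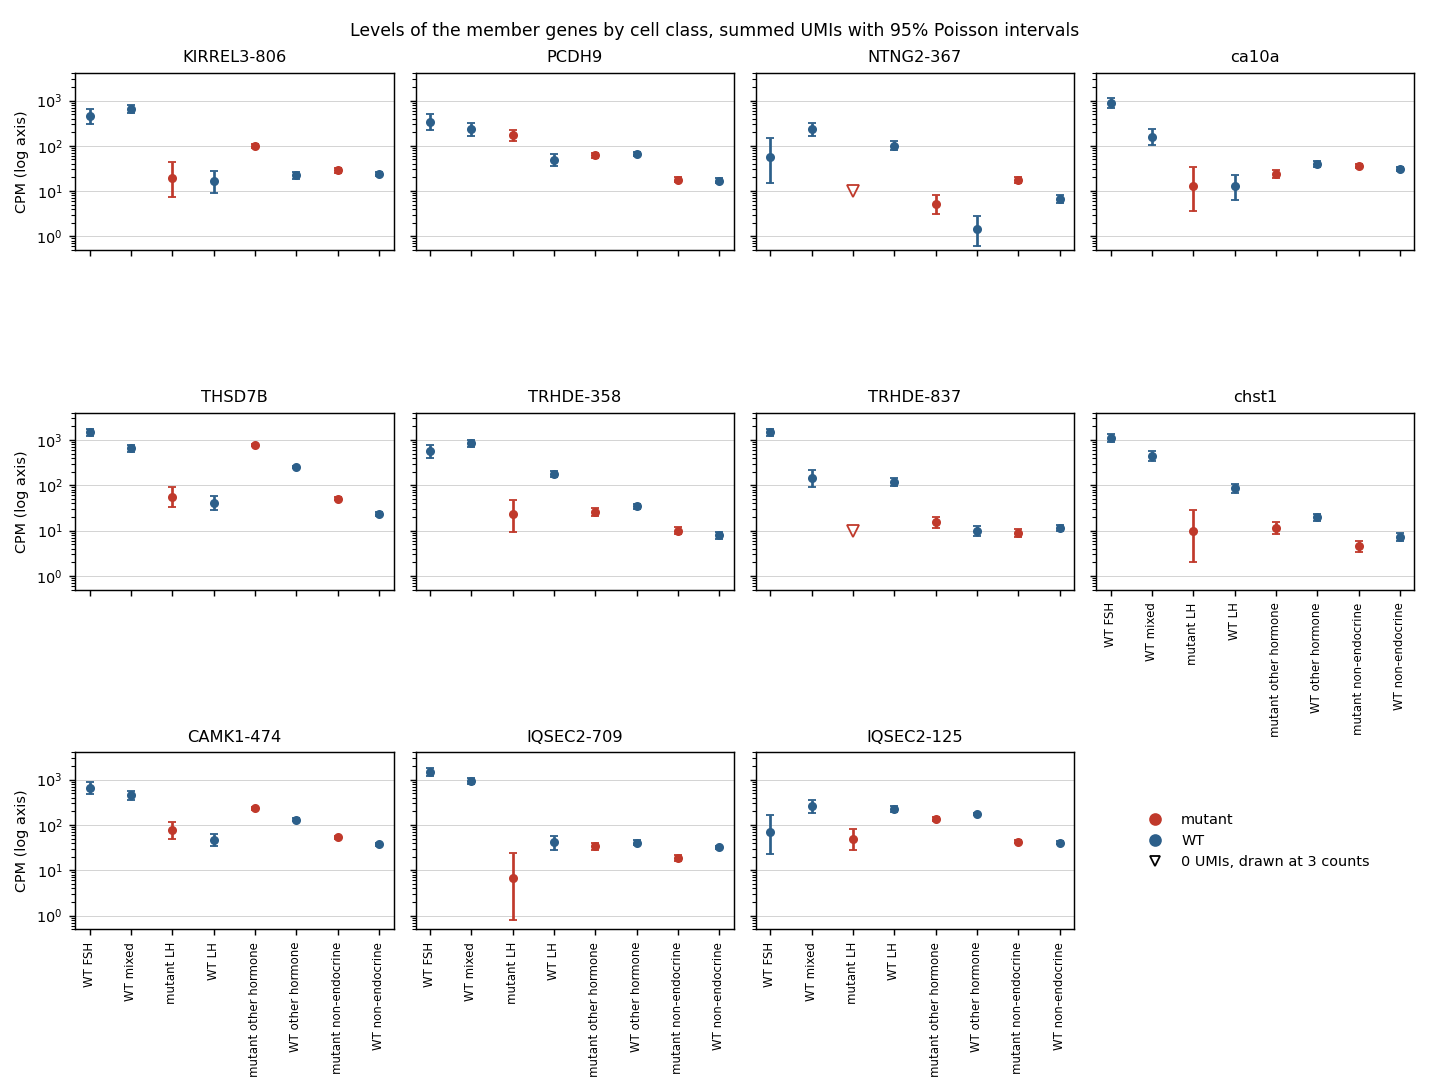
Level of 11 member listings (vertical log axis, CPM of summed UMIs) in each cell class, mutant in red and WT in blue, with 95% Poisson intervals; a triangle marks 0 UMIs, drawn at the level of 3 counts. The ca10a level was 879 CPM in WT FSH cells and 12.9 CPM in WT LH cells, while NTNG2-367 stood at 56.7 and 101 CPM in the same classes.

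Among the adhesion and cell surface genes, *ca10a* stood farthest from LH cells. In the 7 FSH cells, listed from the highest *fshb* share to the lowest, *ca10a* had 1, 0, 11, 19, 7, 0 and 24 UMIs. Summed, that was 879 CPM in FSH cells against 12.9 CPM in LH cells, where 4 of 72 cells had a UMI, a ratio of 67.9 (35.5 to 143). It ranked 5 of 4986 features by this ratio. Mixed cells stood between, at 159 CPM.

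*THSD7B*, which encodes a membrane protein with thrombospondin type 1 domains, had a UMI in all 7 FSH cells: 6, 15, 27, 9, 9, 1 and 38. Its level was 1489 CPM in FSH cells, 656 CPM in mixed cells and 41.2 CPM in LH cells, so FSH cells were 36.1-fold higher than LH cells (24.4 to 54.6). No single cell carried it.

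The *KIRREL3* listing that was expressed, KIRREL3-806, was detected in 4 of 7 FSH cells, with 4, 0, 6, 20, 0, 0 and 2 UMIs. It stood at 454 CPM in FSH cells, 644 CPM in mixed cells and 16.5 CPM in LH cells, a 27.5-fold difference between FSH and LH cells (14.3 to 55.9). The fourth cell held 20 of the 32 UMIs, and 11 of the 14 UMIs in LH cells also came from 1 cell. One mixed cell held 55 of the 101 UMIs in mixed cells. With these cells in, FSH and mixed cells were close for this gene.

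*PCDH9* was modest by comparison. The 7 FSH cells had 4, 3, 4, 10, 1, 2 and 0 UMIs, and the level was 340 CPM in FSH cells, 236 CPM in mixed cells and 49.4 CPM in LH cells, a ratio of 6.88 between FSH and LH cells (3.99 to 11.6). *NTNG2* was not higher in FSH cells: NTNG2-367 had 4 UMIs in FSH cells (56.7 CPM), 229 CPM in mixed cells and 101 CPM in LH cells, and the interval of the FSH to LH ratio of 0.56 spanned equality (0.15 to 1.49).

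Of the enzyme genes, *chst1*, which encodes a carbohydrate sulfotransferase, had 15, 19, 10, 14, 11, 0 and 10 UMIs in the FSH cells. It was missing from the sixth cell only, the shallowest with 2461 UMIs. Its level was 1120 CPM in FSH cells, 446 CPM in mixed cells and 87.1 CPM in LH cells, 12.9-fold higher in FSH than in LH cells (9.25 to 17.9).

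*TRHDE* encodes the membrane peptidase that degrades thyrotropin-releasing hormone (TRH), and both of its listings rested on 1 FSH cell. The fourth cell held 86 of 105 UMIs of TRHDE-837 and 37 of 40 UMIs of TRHDE-358. With all cells in, TRHDE-837 stood at 1489 CPM in FSH cells and 118 CPM in LH cells, a ratio of 12.7 (9.53 to 16.8), and TRHDE-358 at 567 CPM in FSH cells and 181 CPM in LH cells, a ratio of 3.13 (2.15 to 4.46). Without the cell richest in the listing in each class, TRHDE-837 was 3.79-fold higher in FSH cells (351 against 92.8 CPM), and TRHDE-358 had 3 UMIs left in FSH cells, 55.5 CPM against 136 CPM in LH cells, a ratio of 0.41 (0.08 to 1.22). The direction for TRHDE-358 therefore hung on that cell. The other FSH cells held 2 or fewer of its UMIs each, while in mixed cells its level was 841 CPM.

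Of the signalling genes, *IQSEC2*, which encodes an exchange factor for ARF GTPases, split by listing. IQSEC2-709 had 12, 6, 40, 28, 6, 1 and 11 UMIs in the FSH cells, 1474 CPM in FSH cells, 930 CPM in mixed cells and 41.2 CPM in LH cells, a 35.8-fold difference between FSH and LH cells (24.2 to 54.1). In LH cells only 6 of 72 had a UMI of it. IQSEC2-125 had 5 UMIs in FSH cells and was lower there (70.9 CPM) than in mixed cells (261 CPM) and LH cells (222 CPM), with an FSH to LH ratio of 0.32 (0.10 to 0.76). The 2 listings of this gene thus ran in opposite directions within gonadotropes.

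The calcium and calmodulin dependent kinase gene *CAMK1*, read through CAMK1-474, was found in all 7 FSH cells with 10, 1, 6, 20, 2, 1 and 6 UMIs. Its level was 652 CPM in FSH cells, 452 CPM in mixed cells and 47.1 CPM in LH cells, 13.9-fold higher in FSH than in LH cells (8.87 to 21.7). FSH and mixed cells were again close.

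**Figure D2:**
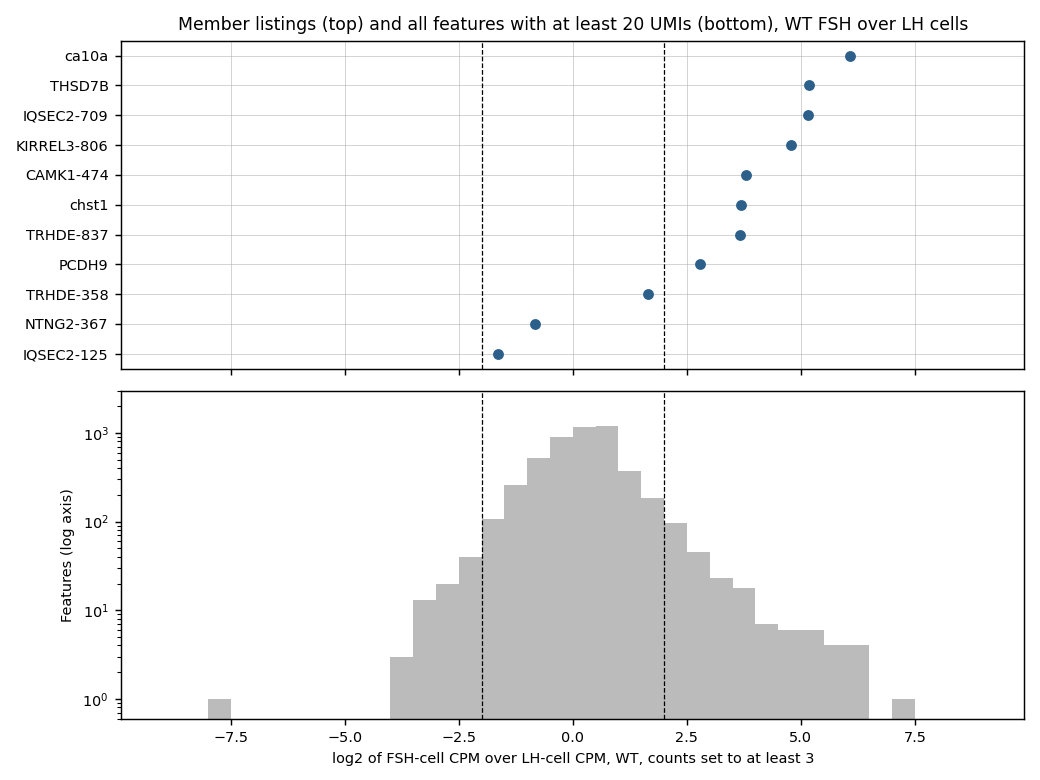
Log2 ratio of WT FSH-cell over WT LH-cell CPM (horizontal axis, each count set to at least 3) for the 11 member listings with at least 20 UMIs (top) and as a histogram of all 4986 such features (bottom, log axis), with dashed lines at 4-fold. The ca10a ratio lay near the right end of the histogram, and NTNG2-367 and IQSEC2-125 lay left of 0.

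With the cell richest in each listing left out of each class, 6 listings stayed at least 4-fold higher in FSH cells: IQSEC2-709, *chst1*, *THSD7B*, *PCDH9*, *ca10a* and CAMK1-474. KIRREL3-806 fell below the count minimum, at 12 UMIs in FSH cells and 3 UMIs in LH cells. The members were spread widely over the FSH cells, each of which held at least 1 UMI of 6 to 9 of the 9 symbols (median 7), a symbol with 2 listings counting once. That number depends on depth, and at 1000 UMIs per cell the expected median was 3.63.

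Just inside the FSH class, the cell with 95.5% *fshb* had 94 member UMIs among 13396. Just outside it, the mixed cells with 88.9% and 86.8% *fshb* had 181 member UMIs among 25653 and 81 among 22744. Per UMI, the first of these mixed cells was close to the FSH cell and the other had fewer member UMIs.

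The members were also read along the *fshb* share of single gonadotropes. WT gonadotropes of at least 2000 UMIs were placed in bins of *fshb* share, with 44 cells under 1%, 8 cells from 1 to 10%, 3 cells from 10 to 50%, 9 cells from 50 to 90% and 7 cells over 90%. IQSEC2-709 stood at 10.1, 202, 1445, 852 and 1474 CPM in these bins. *chst1* stood at 86.6, 101, 471, 460 and 1120 CPM. Cells rich in *fshb* were higher for both genes, and IQSEC2-709 already differed between the 2 lowest bins.

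KIRREL3-806 had 4.33, 79.2, 314, 732 and 454 CPM in the same bins, and CAMK1-474 had 43.3, 72.0, 62.8, 579 and 652 CPM. Both were as high in the bin from 50 to 90% as above it, but for KIRREL3-806 that bin leaned on 1 cell with 55 UMIs. *ca10a*, with 11.6, 14.4, 251, 136 and 879 CPM, and *THSD7B*, with 49.1, 7.20, 722, 656 and 1489 CPM, were highest above 90%. In the bin from 10 to 50%, 1 of the 3 cells held 161 of 165 member UMIs, so its values describe that cell.

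TRHDE-358 (159, 310, 1005, 834 and 567 CPM) and NTNG2-367 (116, 43.2, 251, 230 and 56.7 CPM) did not peak in the last bin. In the bins above 1% the richest cell held 42, 30, 44 and 37 TRHDE-358 UMIs in turn, so these values lean on single cells. Compared with mixed cells, TRHDE-837 was 10.2-fold, *ca10a* 5.52-fold and *chst1* 2.51-fold higher in FSH cells. The TRHDE-837 ratio rests on 1 FSH cell with 86 of 105 UMIs. Without that cell its level in FSH cells was 351 CPM, against 147 CPM in all mixed cells. TRHDE-358, IQSEC2-125 and NTNG2-367 had ratios of 0.67, 0.27 and 0.25.

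**Figure D3:**
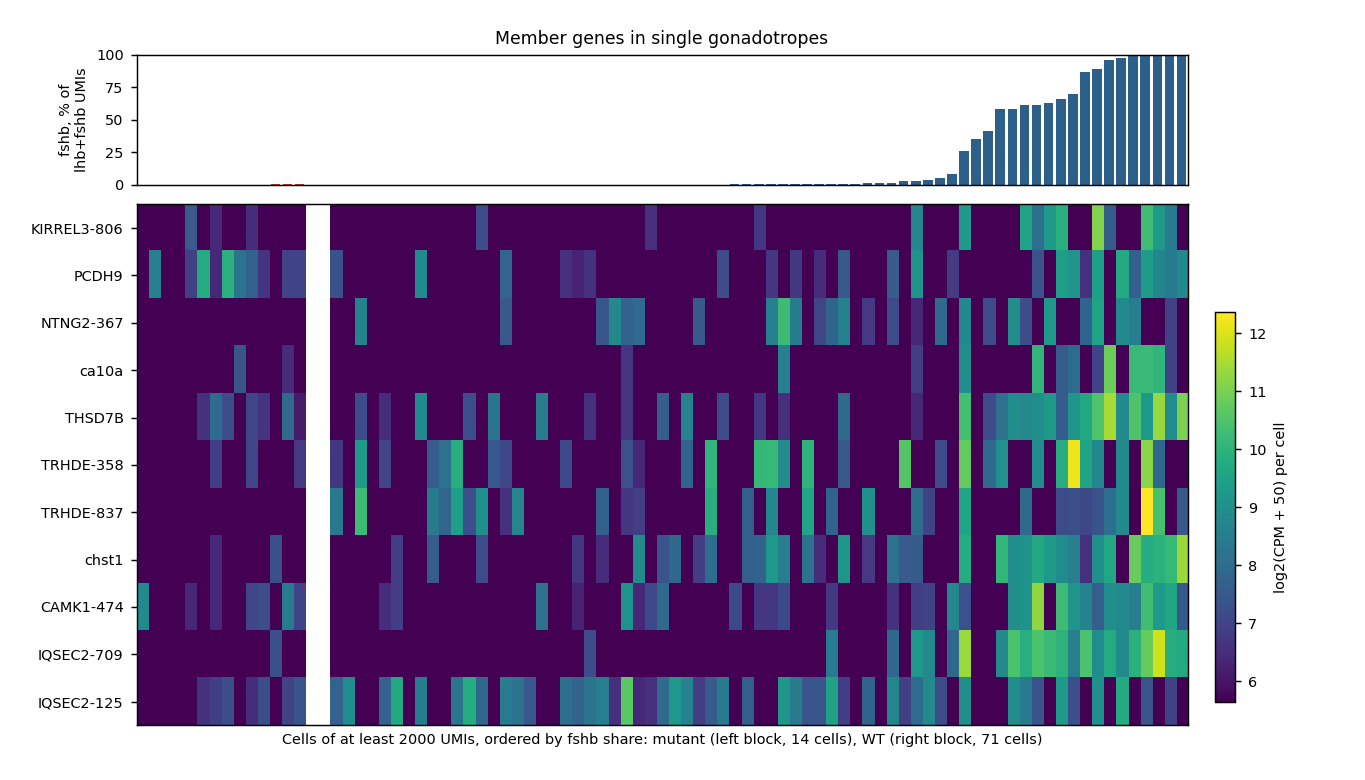
Levels of 11 member listings (rows, log2 of CPM plus 50, colour) in single gonadotropes of at least 2000 UMIs (columns), mutant block left with 14 cells and WT block right with 71 cells, each ordered by the fshb share drawn as bars on top. IQSEC2-709 and THSD7B filled the WT cells at the right, and PCDH9 was the brightest row of the mutant block.

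Mixed cells of at least 2000 UMIs held a median of 7 of the 9 symbols per cell, the same number as FSH cells. LH cells of any depth held a median of 2 symbols in the mutant and 3 in the WT library. At 2000 UMIs or more the median was 3 in mutant LH cells. In WT cells of that depth it was 3 with *fshb* under 1% and 3.5 from 1 to 10%. All 8 WT LH cells with 5 or more symbols had at least 1 *fshb* UMI, and so did 36 of the 72 WT LH cells. These 36 cells were also deeper (median 15969 UMIs) than the 36 LH cells without an *fshb* UMI (median 7776 UMIs).

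Within WT LH cells the level of some members differed with the presence of *fshb*. LH cells with an *fshb* UMI were 10.3-fold higher for IQSEC2-709 (2.62 to 88.2), with 33 UMIs against 2 UMIs in the LH cells without one. They were 8.57-fold higher for *chst1* (3.50 to 27.2) and 4.72-fold higher for NTNG2-367 (2.43 to 10.2). *PCDH9*, *THSD7B* and TRHDE-837 had ratios of 0.83, 0.52 and 0.65 in the same comparison. The part of doublets and of free RNA in these cells was not tested.

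Against the hormone cells of other kinds, 9 of the 10 listings with enough UMIs were at least 4-fold higher in FSH cells, where 4.28% of features were. IQSEC2-125 was the exception, at 70.9 CPM in FSH cells and 177 CPM in the other hormone cells. The ratios ran up to 149 for TRHDE-837, 56.7 for *chst1*, 36.0 for IQSEC2-709 and 22.2 for *ca10a*. They were smallest for CAMK1-474 (4.97), *PCDH9* (5.21) and *THSD7B* (5.85). With the richest cell of each class left out, TRHDE-837 was 37.9-fold and *chst1* 51.7-fold higher in FSH cells, and TRHDE-358 (2.16) and CAMK1-474 (3.74) no longer reached 4-fold. The median log2 ratio was 4.2 over the 10 listings and 1.53 over all features, many of which had no UMI in the 7 FSH cells and were counted at the floor of 3. Because of that floor, the median over all features says little about the features themselves.

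The members also differed among the hormone classes. *THSD7B* stood at 400 CPM in WT cells rich in growth hormone (*gh1*), 21.3 CPM in those rich in prolactin (*prl*) and 39.7 CPM in those rich in *pomca*, the precursor of ACTH and MSH. IQSEC2-709 was at 226 CPM in *prl*-rich cells, 8.45 CPM in *pomca*-rich cells and 1.20 CPM in *gh1*-rich cells. IQSEC2-125 was at 443 CPM in *pomca*-rich cells, above all 3 gonadotrope classes, and at 154 CPM in *prl*-rich and 79.3 CPM in *gh1*-rich cells. TRHDE-358 was at 151 CPM in *pomca*-rich cells and 2.99 CPM in *gh1*-rich cells. Each of these listings was higher in 1 hormone class than in the other classes given for it. Against that class alone, FSH cells were short of 4-fold for *THSD7B* (1489 CPM in FSH cells) and TRHDE-358 (567 CPM). For IQSEC2-709 the 1474 CPM of FSH cells stood against 226 CPM in *prl*-rich cells, closer than in the pooled comparison.

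LH cells also differed from the other hormone cells. NTNG2-367 was 69.8-fold higher in WT LH cells than in WT cells of the other hormones (33.9 to 167), and TRHDE-837 was 11.8-fold, TRHDE-358 5.29-fold and *chst1* 4.41-fold higher. *ca10a*, *THSD7B* and CAMK1-474 were lower in LH cells, with ratios of 0.33, 0.16 and 0.36. NTNG2-367 thus set LH cells apart from the other hormone cells, but not FSH cells from LH cells.

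Against non-endocrine cells, 10 of 13 listings were at least 4-fold higher in FSH cells, where 5.69% of features were. The largest ratios were 152 for *chst1*, 131 for TRHDE-837, 72.4 for TRHDE-358 and 63.0 for *THSD7B*. With the richest cell of each class left out they were 146, 34.7, 7.67 and 55.2 for these listings, TRHDE-358 keeping 3 UMIs in FSH cells, so the place of both *TRHDE* listings rests on 1 FSH cell. TRHDE-358 and NTNG2-367 were then not among the 8 listings called. The median log2 ratio was 4.49 over the 13 listings and 2.31 over all features, again with many features at the floor. The median of the listings was itself a floored value, that of NTNG2-100, whose 1 UMI in FSH cells was counted as 3. IQSEC2-125 did not reach 4-fold, with a ratio of 1.74. KIRREL3-903 and NTNG2-100 had 0 and 1 UMI in FSH cells, too few for a call.

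Non-endocrine cells were far from uniform. Cluster 19, named neuron-like from 10 of 12 neuron markers, held 20 mutant and 5 WT cells. There *ca10a* stood at 477 CPM in mutant and 769 CPM in WT cells, and NTNG2-367 at 370 CPM in mutant and 319 CPM in WT cells. One WT cell held 75886 of the 90999 UMIs of the 5 WT cells, so the WT levels of this cluster lean on that cell. KIRREL3-806 stood at 236 CPM in mutant and 1593 CPM in WT cells, with 82.1% of the WT UMIs in 1 cell. *chst1*, at 1120 CPM in FSH cells, had no UMI in this cluster in either library, which allows up to 8.04 CPM in mutant and 33.0 CPM in WT cells (3 counts).

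Cluster 17, led by *scn4ab*, *foxd3* and *sox10*, held NTNG2-367 at 312 CPM in mutant and 272 CPM in WT cells. Cluster 24, led by *il1rapl2* and *HCN4*, held KIRREL3-806 at 1578 CPM in its 5 mutant cells and 322 CPM in its 10 WT cells. Cluster 10 was led by *tshba*, *smtlb* and *pou1f1*, genes of thyrotropes, somatolactin cells and their lineage, and lay below the hormone threshold of the other hormone class. In it *ca10a* stood at 144 CPM in mutant and 312 CPM in WT cells, and IQSEC2-709 at 45.3 CPM in mutant and 225 CPM in WT cells. Most members were found there at levels under those of FSH cells.

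Cluster 16, led by *pomca* and *gad2* among others, resembled the *pomca*-rich cells in its IQSEC2-125 level of 418 CPM in mutant and 450 CPM in WT cells. With clusters 10 and 16 left out of the non-endocrine cells, 11 listings were at least 4-fold higher in FSH cells, IQSEC2-125 among them at 4.60-fold, and the ratio for *chst1* was 490. Red blood-like cells had a median of 8945 UMIs. Their highest member levels were 8.56 CPM in mutant and 6.88 CPM in WT cells, both for IQSEC2-125. A UMI of any 1 listing was seen in at most 5.80% of these mutant cells and 4.46% of these WT cells. All 7 FSH cells, of median depth 10712 UMIs, had a UMI of IQSEC2-709, *THSD7B* and CAMK1-474, and the other listings were found in fewer of them. The part of free RNA in the members' levels was not tested.

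**Figure D4:**
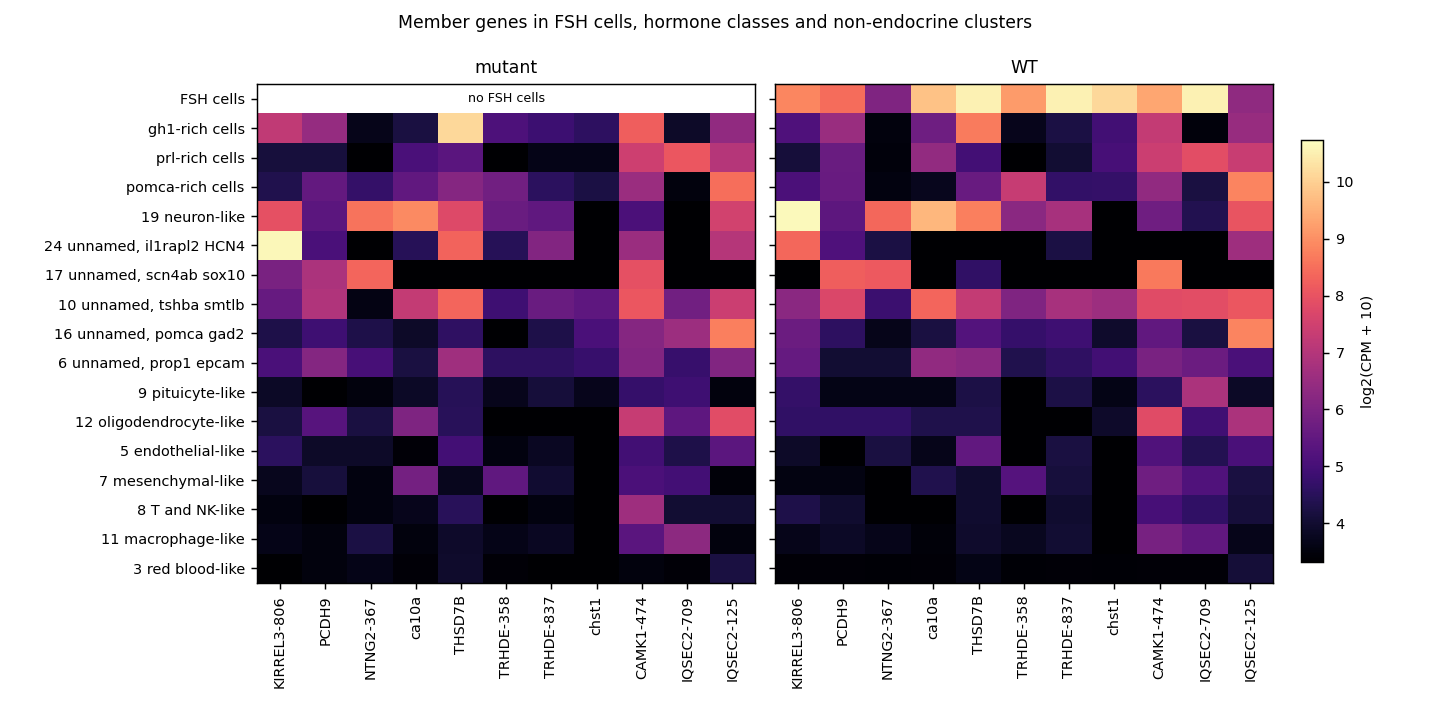
Levels of 11 member listings (columns, log2 of CPM plus 10, colour) in FSH cells, the hormone classes and 13 non-endocrine clusters (rows), mutant left and WT right; the mutant library had no FSH cells. The chst1 column was bright in FSH cells alone among the rows, while ca10a and NTNG2-367 were also bright in neuron-like cluster 19.

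The comparison of genotypes in gonadotropes as a whole sets 19 mutant LH cells against WT cells of all 3 gonadotrope classes. In all gonadotropes, 8 of the 11 listings with enough UMIs were at least 4-fold lower in the mutant, where 3.14% of features were, and the median log2 ratio was -2.78 over the listings and -0.08 over all features. IQSEC2-709 had 2 UMIs in mutant and 285 UMIs in WT gonadotropes, 39.9-fold lower (10.9 to 331). TRHDE-837 had 0 UMIs in mutant and 228 UMIs in WT gonadotropes, at least 21.3-fold lower with the mutant set to 3 counts. The members were picked as high in FSH cells and the mutant library had none, so nothing is read from these counts and medians. In this contrast, fewer FSH cells and less RNA per cell cannot be told apart.

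*PCDH9* was the member that went the other way, at 169 CPM in mutant and 95.6 CPM in WT gonadotropes. *THSD7B* (17 against 243 UMIs, log2 ratio -2.0) lay at the threshold without passing it, and CAMK1-474 had a log2 ratio of -0.93.

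In LH cells the cells classed as FSH cells do not enter the sums. The part of FSH-cell RNA in WT LH cells, from doublets or free RNA, was not tested. Of 10 listings with enough UMIs, 6 were at least 4-fold lower in mutant than in WT LH cells, where 3.29% of features were. The median log2 ratio was -2.10 over the 10 listings and -0.05 over all features. The 6 were both listings of *IQSEC2* and *TRHDE*, *chst1* and NTNG2-367. Each of the 6 reached the count minimum through the WT cells, so their number is a description only.

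TRHDE-837 had 0 UMIs in the 19 mutant LH cells (up to 12.2 CPM) and 100 UMIs, or 118 CPM, in 21 of 72 WT LH cells, and was at least 11.8-fold lower in the mutant. NTNG2-367 had 0 UMIs in mutant LH cells and 86 UMIs, or 101 CPM, in 17 of 72 WT LH cells, at least 10.2-fold lower. TRHDE-358 had 7 UMIs in mutant and 154 UMIs in WT LH cells, 7.80-fold lower (3.70 to 19.7). Each of these 3 listings was found in 17 to 21 of the 72 WT LH cells.

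*chst1* had 3 UMIs in mutant and 74 UMIs in WT LH cells, 8.75-fold lower in the mutant (2.88 to 43.4). IQSEC2-709 had 2 UMIs in mutant and 35 UMIs in WT LH cells, 6.21-fold lower (1.59 to 53.3). One WT cell held 16 of these 35 UMIs, and IQSEC2-709 no longer passed with the richest cell of each class left out (0 against 19 UMIs), at a gonadotropin threshold of 2%, without gonadotropes rich in other hormone RNA, with the mean of CPM over cells or at a minimum of 50 UMIs. IQSEC2-125 stood at 49.8 CPM in 7 of 19 mutant LH cells and 222 CPM in 40 of 72 WT LH cells, 4.47-fold lower (2.64 to 8.14), but short of 4-fold at a gonadotropin threshold of 0.5%. IQSEC2-125 was the most widely detected of these listings in WT LH cells.

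The adhesion genes with the highest FSH to LH ratios did not differ in LH cells between the libraries beyond counting error. *THSD7B* had 56.4 CPM in mutant and 41.2 CPM in WT LH cells, with a log2 ratio of 0.45 (-0.48 to 1.33). KIRREL3-806 had 6 UMIs in mutant and 14 UMIs in WT LH cells, a log2 ratio of 0.27 (-1.39 to 1.74). *ca10a* had 4 UMIs in mutant and 11 UMIs in WT LH cells, below the count minimum. The intervals allow differences of more than 2-fold for each of them.

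*PCDH9* was higher in mutant LH cells. It stood at 169 CPM in 11 of 19 mutant LH cells and 49.4 CPM in 15 of 72 WT LH cells, a log2 ratio of 1.78 (1.16 to 2.40), and was 3.55-fold higher with the richest cell of each library left out. The mutant LH cells were deeper (median 17820 UMIs) than the WT ones (11004 UMIs), and at 1000 UMIs per cell the expected share with a *PCDH9* UMI was 14.5% of 15 mutant cells and 4.03% of 57 WT cells, the shallower cells being left out. CAMK1-474 had 76.3 CPM in mutant and 47.1 CPM in WT LH cells, with an interval of the log2 ratio that reached 0 (-0.11 to 1.47).

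**Figure D5:**
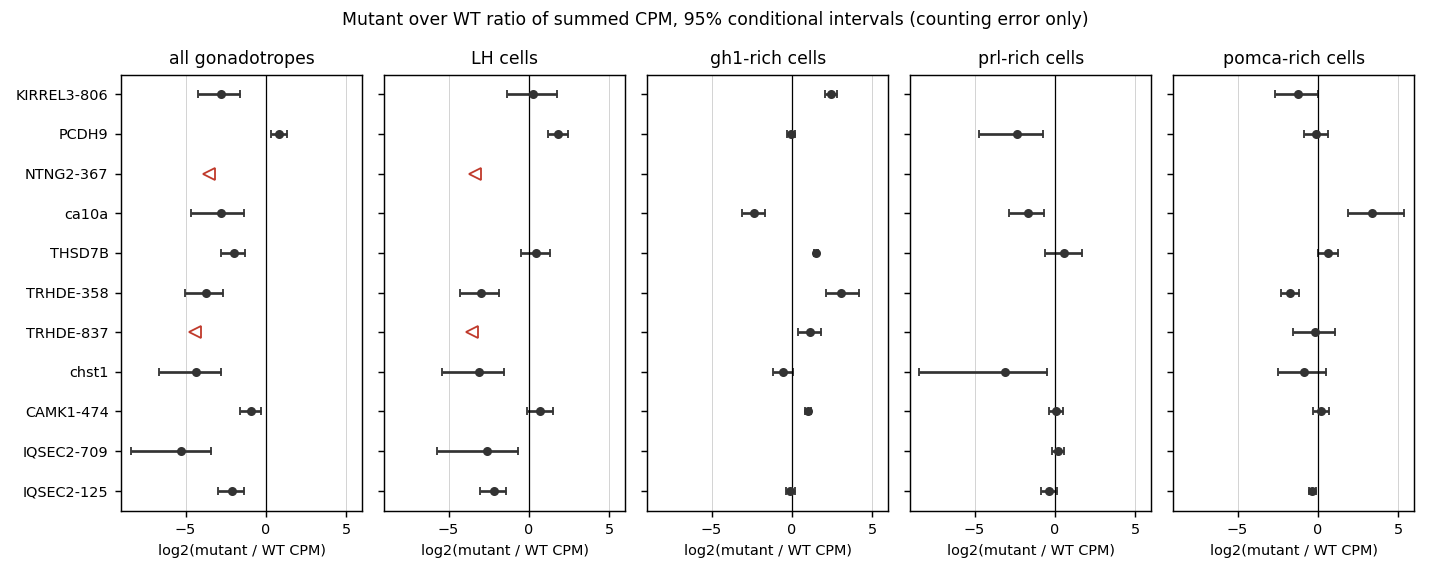
Log2 ratio of mutant over WT CPM (horizontal axes) for 11 member listings in 5 cell classes, with 95% conditional intervals; red triangles mark listings with 0 mutant UMIs, set to 3 counts, and empty rows had too few UMIs. In LH cells PCDH9 lay right of 0 at 1.78 and TRHDE-358 left of it at -2.96.

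Other LH-cell RNAs also differed between the libraries. *fshb* itself stood at 66.3 CPM in mutant and 391 CPM in WT LH cells, *lhb* had a log2 ratio of -0.79 and *cga* one of -1.16. *gnrhr2* had 0 UMIs in mutant LH cells and 44.7 CPM in WT LH cells. The LH cells were therefore compared again with all cells holding an *fshb* UMI left out of both libraries, which left 14 mutant and 36 WT cells. Finding no *fshb* UMI depends on depth, and the median was 13233.5 UMIs in these mutant and 7776 UMIs in these WT cells. The cells left may therefore not be matched for *fshb* RNA.

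In LH cells without *fshb*, 3 of 5 listings with enough UMIs stayed at least 4-fold lower in the mutant. IQSEC2-125 had 27.0 CPM in mutant and 200 CPM in WT cells, 7.40-fold lower (3.01 to 23.6), TRHDE-358 had 21.6 CPM in mutant and 101 CPM in WT cells, 4.70-fold lower (1.67 to 18.2), and TRHDE-837 had 0 UMIs in mutant and 49 UMIs in WT cells. *PCDH9* was again higher, at 237 CPM in mutant and 55.3 CPM in WT cells. *chst1* (1 against 5 UMIs), IQSEC2-709 (0 against 2 UMIs) and NTNG2-367 (0 against 10 UMIs) were below the count minimum, so no call was made for them. The interval of the mutant to WT ratio of NTNG2-367 in these cells ran from 0 to 0.78.

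Outside gonadotropes, *gh1*-rich cells had the clearest differences between the libraries, with 141 mutant and 222 WT cells. *THSD7B* stood at 1126 CPM in mutant and 400 CPM in WT cells, a log2 ratio of 1.49 (1.40 to 1.59), and a median per cell of 989 CPM in mutant and 257 CPM in WT cells. It was detected in 95.7% of mutant cells (median depth 14539 UMIs) and 72.5% of WT cells (11474 UMIs), or an expected 59.3% and 29.8% at 1000 UMIs per cell. KIRREL3-806 stood at 139 CPM in mutant and 26.0 CPM in WT cells, a log2 ratio of 2.42. CAMK1-474 stood at 288 CPM in mutant and 146 CPM in WT cells, a log2 ratio of 0.98. All 3 genes were higher in the mutant library, in cells that make neither gonadotropin.

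TRHDE-358 was also higher in mutant *gh1*-rich cells (59 against 10 UMIs, log2 ratio 3.07), and *ca10a* was lower there (8.50 against 43.1 CPM, log2 ratio -2.34). *PCDH9* was at 78.6 CPM in mutant and 81.7 CPM in WT *gh1*-rich cells. The median log2 ratio was 1.05 over the 10 listings with enough UMIs and 0.31 over all features, of which 17.9% were at least 2-fold higher and 6.54% at least 2-fold lower in the mutant. More features were thus higher than lower in the mutant *gh1*-rich cells.

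In *prl*-rich cells IQSEC2-709 was at 260 CPM in mutant and 226 CPM in WT cells. *PCDH9* had 3 UMIs in mutant and 38 UMIs in WT *prl*-rich cells, a log2 ratio of -2.38. It was found in only 14.8% of the 61 WT *prl*-rich cells, the highest at 1971 CPM, so this ratio rests on few cells. In *pomca*-rich cells TRHDE-358 was at 45.6 CPM in mutant and 151 CPM in WT cells, a log2 ratio of -1.73, and *ca10a* had 24 UMIs in mutant and 4 UMIs in WT cells. The mutant to WT direction of TRHDE-358, *ca10a* and *PCDH9* thus differed from one hormone class to another, each on few cells of at least 1 class. A *ca10a* UMI was found in 13.9% of 36 mutant and 3.70% of 81 WT *pomca*-rich cells. For TRHDE-358 the share was 9.22% of 141 mutant and 4.05% of 222 WT *gh1*-rich cells. The difference between classes was not tested.

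The families around the members were read in the same contrast. Of 68 other listings from 9 lists of relatives and partners, 24 had at least 20 UMIs over FSH and LH cells, 2 of these 24 were at least 4-fold higher in FSH cells, beside 4.21% of all features, and 0 were at least 4-fold lower. The other 44 listings had too few UMIs to compare. The protocadherin gene *pcdh17* had 468 CPM in FSH and 54.1 CPM in LH cells, an 8.64-fold difference. The neurexin gene *nrxn3a* had 113 CPM in FSH and 24.7 CPM in LH cells, 4.59-fold, on 8 UMIs in FSH cells (log2 interval 0.81 to 3.43). In WT cells of the other hormones *pcdh17* stood at 229 CPM and *nrxn3a* at 119 CPM, so *nrxn3a* was not higher in FSH cells than there. Both belong to adhesion families, as do listings that were not called.

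Among neurexins, the presynaptic binding partners of CA10, *nrxn1a* was about level between the classes (1574 CPM in FSH and 1491 CPM in LH cells). *nrxn2a* was 3.57-fold higher in FSH than in LH cells (525 against 147 CPM), but stood at 672 CPM in WT cells of the other hormones. Of the THSD7 family, *thsd7aa* had 1 UMI in FSH cells (14.2 CPM) and 87.1 CPM in LH cells, a ratio of 0.16 on that 1 UMI, with a log2 interval of -7.94 to -0.10.

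CHST8, the sulfotransferase known in mammals for the sulfated sugars of LH, stood at 3105 CPM in FSH and 1943 CPM in LH cells, against 69.4 CPM in the other hormone cells. It was high in both gonadotrope classes. *camk2g1*, from the larger calmodulin kinase family of *CAMK1*, had a ratio of 0.43. The TRH receptor gene *trhr2* had 9 UMIs in FSH cells and 0 UMIs in LH cells, below the count minimum, and *trh* itself had no UMI in either class.

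The features whose profile was most like the mean of the members were sought over 24 WT cell classes and clusters, by Pearson correlation of log2(CPM + 5) among 2640 features. Among the 8 most alike were the glutamate receptor genes *grm5a* (r = 0.92) and *GRM4* (r = 0.90), the nitric oxide synthase gene *nos1* (r = 0.91), the neurotrophin gene *bdnf* (r = 0.90) and the kinase gene *map2k1* (r = 0.90). *grm5a* had 298 CPM in FSH and 11.8 CPM in LH cells, *nos1* 284 and 44.7 CPM, and *bdnf* 369 and 11.8 CPM in the same order. The classes come from 1 library and differ in depth, the correlations carry no p, and each rests on 24 points. Since the members were picked on FSH cells, features like their mean lean towards FSH cells by construction. Of the members themselves, *chst1* was closest to their mean (r = 0.95) and KIRREL3-903 farthest (r = 0.21). Each listing is part of that mean, so these values are partly built in. KIRREL3-903 had 0 UMIs in FSH cells and 1 UMI in WT LH cells.

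Of the genes set beside them, *fshb* had r = 0.82 with the mean of the members, *cga* r = 0.82 and *lhb* r = 0.55. The members were picked on FSH cells, and *fshb* and *lhb* define the gonadotrope classes. These values and their order are therefore partly built in, and nothing is read from them. The cholecystokinin receptor listing CCKBR had r = 0.77, with 8 UMIs in 4 of 7 FSH cells and 0 UMIs in WT LH cells. Mutant LH cells had 5 UMIs, all in 1 of the 19 cells. These counts lie below the minimum used for the members.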

How the data were processed

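Single-cell UMI counts were measured in 2 pituitary libraries, 1 mutant and 1 WT. The authors deposited raw counts per gene and barcode, made with Cell Ranger; the submitters' processing notes also name Seurat and GRCz11, and the annotation release is not given in the sources used here. No coordinates or sequences were used.

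Cells with at least 200 genes and at most 20% mitochondrial UMIs were kept. Scrublet's automatic threshold marked 0 cells; instead, cells with the highest scores were dropped, 0.8% per 1000 barcodes (101 mutant and 206 WT cells). Depth per library ranged from 15910570 to 22358017 UMIs before filtering. Cells of the other hormones also needed at least 2000 UMIs. Cells that met no class definition (164 mutant, 387 WT) were left out. Non-endocrine cells were clustered without hormone genes, members or mitochondrial genes (2000 variable genes, 30 components, 20 neighbours, Leiden resolution 1; 26 clusters).

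UMIs were summed per class and given as CPM with exact Poisson intervals; ratios carry exact conditional intervals and shares Clopper-Pearson intervals. With 1 library per genotype no test was run. Features with at least 20 UMIs over both classes were compared, each count set to at least 3, and a 4-fold difference was called only with more than 3 UMIs in the higher class, a condition added after the counts were seen. The named genes were the members, relatives from family lists, and the 8 features most like the mean of the members (at least 50 UMIs in WT gonadotropes, at most 20% of them in 1 cell). For these correlations hormone classes and clusters needed at least 20 cells. The FSH, mixed and LH classes were used at any size, FSH with 7 cells. Members and lists were chosen with earlier results of these data known. The fold call and the ratio interval were tried on simulated Poisson counts for the WT FSH and LH classes, without spread between cells. The other steps were not simulated. Software: scanpy 1.11.5, anndata 0.12.19, igraph 0.11.9, leidenalg 0.10.2, scipy 1.17.1, numpy 2.4.6, pandas 2.3.3 and matplotlib 3.10.9 under Python 3.11.15.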

Additional observations from a re-analysis of the deposited data

How the results depend on the processing

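The number of listings at least 4-fold higher in FSH than in LH cells ran from 6 to 9 over 13 alternatives (cell filter, doublets, depth, thresholds, richest cell left out, fold, weighting, low counts and floor), against the other hormone cells from 7 to 9 over 14, and against non-endocrine cells from 8 to 11 over 15. The number lower in mutant gonadotropes ran from 8 to 9 over 11 alternatives. In LH cells it ran from 3 to 6 over 14, with 3 of 5 listings in LH cells without an *fshb* UMI, an alternative chosen after seeing the data that leaves fewer cells and UMIs. The median number of the 9 symbols per FSH cell was 3.63 at 1000 UMIs per cell, fewer UMIs giving fewer detections, and lay within 1.5 times 7 in the other 8 alternatives. No paired analysis was possible because each genotype had 1 library. The FSH values rest on 7 cells of 1 library, and 5 mutant and 30 WT gonadotropes had under 2000 UMIs.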
